A study of Mus musculus with 6 samples.

Results

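Total RNA labelled as cortex of adult B10D2 mice was read on 3 of the 6 spotted oligonucleotide arrays of the series, those titled as cortex replicates 1 to 3. The other 3 arrays carried RNA from the thymus of the same strain and serve only as a comparison. Per the labels, RNA of 6 cortices was pooled in equal amounts, as was RNA of 5 thymi, and 15 µg of pooled RNA was copied with random hexamers into Cy5-labelled cDNA for each hybridization. The groups carry no treatment and no mutation. The 3 cortex arrays repeat the hybridization of pooled RNA, so every SD below is technical and none measures the spread between mice. A pool of whole cortex also cannot tell fewer cells of a type from less RNA per cell.

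The array was built around genes of neurotransmission and holds 590 gene probes of 288 sequence entries, most entries being printed as a pair of different oligonucleotides (oligos). For each probe the net signal was the spot's median minus its local background median, in scanner units, averaged over the spots that the scanner had not flagged. A probe was called detected where it exceeded the highest unflagged blank spot of that array on all 3 cortex arrays. Probes were then ranked within each array as percentiles, with 100 for the highest signal. These ranks order probe signals and not transcript amounts, because oligos differ in how well they bind their targets.

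Fast transmission in the cortex rests on glutamate, released by pyramidal neurons onto AMPA, NMDA and kainate receptors, and on GABA, released by interneurons onto chloride-conducting GABA-A receptors. Interneuron types are told apart by peptides such as somatostatin and cholecystokinin, and potassium channels set the firing pattern of each type. Dopamine, serotonin, noradrenaline and most acetylcholine reach the cortex in axons whose cell bodies lie elsewhere, so the cortex holds their receptors but few of their synthesizing cells.

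On the cortex arrays 384 of 590 probes were detected on all 3 arrays, which is 65.1% of the probes. They belonged to 230 of the 288 entries and to 192 of 234 named genes. Single arrays gave 518, 449 and 421 probes above their limit. The first array was the brightest, with a median net signal of 2573 units over probes, against 1868 units on the second and 829 units on the third. Per the file headers the third was scanned at another setting than the first and second, whose part in its lower signal was not tested. The limits did not follow that order, at 546, 658.5 and 402.5 units, and each rested on 1 spot: the next highest blank lay at 452, 526 and 341 units. Of the 320 blank spots, 123 to 126 per array were unflagged. With flagged spots kept, a flagged blank set limits of 5426 and 4933 units on cortex 1 and 3, and 43 probes were detected.

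**Figure D1:**
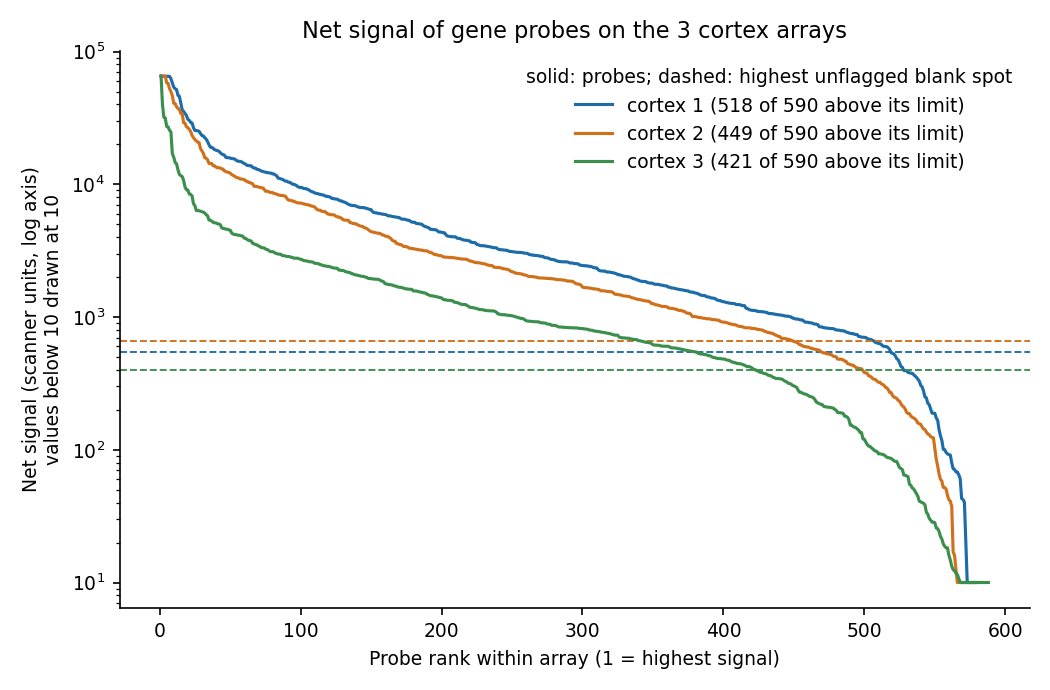
Net signal of each gene probe against its rank on the 3 cortex arrays, on a log axis in scanner units, with each array's highest unflagged blank spot as a dashed line. Cortex 3 runs below the other arrays over most of the range and crosses its limit first, at 421 probes, against 449 on cortex 2 and 518 on cortex 1.

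A further 87 probes passed on 2 arrays, 62 on 1 array and 57 on none. Of those 87 probes, 55 failed on cortex 3 alone, 26 on cortex 2 alone and 6 on cortex 1 alone. Missing values counted as not detected and touched 19 probes, of which 18 exceeded the limit wherever they had a value. All 14 undetected probes with a mean percentile above 60 were of this kind, among them a Prkaca oligo for the catalytic subunit of protein kinase A and a Gabra5 oligo for a GABA-A subunit. No probe with a mean percentile under 20 was detected, out of 108, and all 53 probes above 90 were. Rank and detection use the same net signal, so this largely follows from where the limits lay.

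The marker genes of cortical neurons and of myelin lay mostly near the top of the ranking. Eno2, the neuronal form of enolase, gave 25287, 14335 and 8467 units with oligo 1 and 25110, 20824 and 17025 units with oligo 2 on cortex 1 to 3. Its mean percentiles were 95.3 ± 1.34 and 96.5 ± 1.86 (SD, n = 3 arrays). Both oligos stood above percentile 93 on every array, the lowest value being 93.9 on cortex 2.

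Gria2, the AMPA receptor subunit that limits calcium entry, gave 19883, 13277 and 6340 units with oligo 1 and 46083, 37284 and 12881 units with oligo 2. The second oligo kept the same place on each array, at percentile 97.9 ± 0.107. Cck, which encodes the peptide cholecystokinin, gave 29232, 29143 and 6911 units with oligo 1 and 20988, 17138 and 3735 units with oligo 2, at percentiles 96.5 ± 0.667 and 92.7 ± 3.16. For these genes the net signal fell several fold between arrays while the rank stayed in place.

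Gad2, a GABA-synthesizing enzyme, had 4 probes in 2 entries, 1 of them printed as GAD67 although its accession is that of Gad2. The higher entry, printed gad65, gave 9282, 9417 and 3107 units with oligo 2 (percentile 85.5 ± 2.73). The other 3 Gad2 probes had percentiles of 66.5 ± 7.65, 67.7 ± 0.809 and 53.6 ± 7.78, and all 4 were detected. Gad2 was thus the lowest placed of the neuron markers with each of its oligos.

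Mbp, the myelin basic protein of oligodendrocytes, had the widest split between its oligos among these 5 genes. Oligo 1 gave 65158, 65392 and 27103 units, at percentile 99.5 ± 0.453, with the scanner at its ceiling on 2 arrays. Oligo 2 gave 3802, 2642 and 829 units, at percentile 58.2 ± 7.21. Both were detected, but the second sat near the middle of the ranking.

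**Figure D2:**
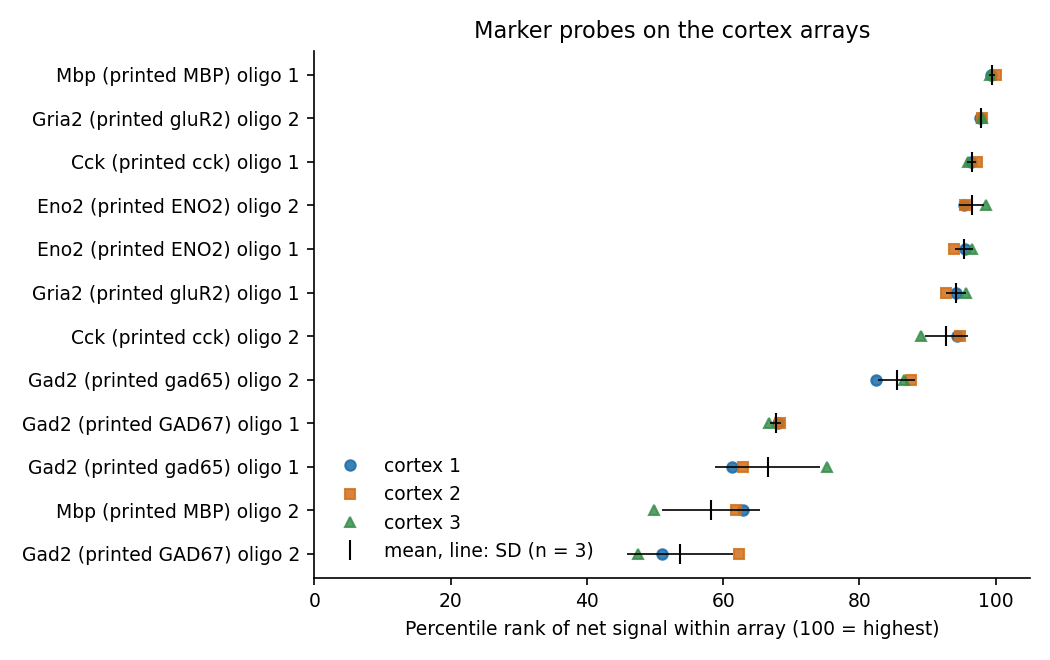
Percentile rank of the 12 probes of Eno2, Gria2, Cck, Gad2 and Mbp on each cortex array, with the mean and SD over 3 arrays. All 6 probes of Eno2, Gria2 and Cck average above 90, whereas Gad2 and the second Mbp oligo spread between 53.6 and 85.5.

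The neuron marker list holds only the Eno2, Gria2, Cck and Gad2 probes above, of which 10 of 10 were detected. The interneuron list, which shares the Cck and Gad2 probes, gave 11 of 12, beside 65.1% of all probes. The interneuron list is the more mixed: a Vip oligo for vasoactive intestinal peptide was above the limit on 1 array (percentile 18.4), the other on all 3 (45.4). Astrocytes were represented by Slc1a3 alone, a glutamate transporter, whose oligos were both detected at percentiles 86.1 ± 6.67 and 38.5 ± 16.3. Microglia, vessel and blood markers had no probe, so those cells could not be assessed.

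Some markers of neighbouring structures and of lymphoid cells were detected, and their part in the signals was not tested. Of 8 probes for striatal markers 3 were detected (37.5%, beside 65.1% of all probes): both Adora2a oligos, for the adenosine A2a receptor, at percentiles 90.9 and 59.1, and 1 Drd1 oligo, for a dopamine receptor, at 38.2. Neither Drd2 oligo was above the limit on all 3 arrays. Htr2c, a serotonin receptor abundant in choroid plexus and also made by neurons, ranked high with oligo 1, at 35440, 40765 and 14243 units (percentile 97.9 ± 0.624), and lower with oligo 2 (70.9 ± 10.0). Ttr, the other choroid plexus marker, had no probe. Lymphoid markers, Kcna3 and Pax5, gave 3 of 4 probes detected (75%, beside 65.1% of all probes), the highest being Pax5 oligo 1 at percentile 42.3. All 3 lay close to the limit, at 1.30 times for Pax5 oligo 1 and 1.23 and 1.02 times for Kcna3 on their lowest array. Pax5 is counted again below among the midbrain, hindbrain and early factors.

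The 20 highest probes were led by genes that most cells use. They included both oligos of alpha tubulin, of Gapdh (glycolysis) and of Actb (actin), and 3 oligos of Eef1a1, a translation factor. Alpha tubulin oligo 2 gave 65335, 58208 and 40082 units. 10 probes in all came to the scanner ceiling on at least 1 array, and none on all 3, so the order among the top few is not resolved on cortex 1 and 2.

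The remaining places went to probes of Mbp, Gria2, Cck, Eno2, Htr2c, Dlx2, Sst, Gabrq, Srcin1 and the entry printed ca/cal kin2. Both ca/cal kin2 oligos, in the kinase class, stood at percentiles 98.8 ± 1.06 and 97.6 ± 0.207. Sst oligo 2, for the interneuron peptide somatostatin, gave 53975, 46490 and 14614 units (98.5 ± 0.159). Gabrq oligo 1, for the theta subunit of GABA-A receptors, gave 52540, 38466 and 9552 units (97.8 ± 0.630). Both oligos printed snap25/p140, whose accession is that of Srcin1, were among the top probes or close to them, at 96.8 ± 0.690 and 96.4. Of the 20 probes with the highest signal on an array, 16 were the same on all 3 arrays, and of the top 50, 34 were.

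Glutamate receptors were detected almost completely. Of 29 probes for 14 receptor genes 27 were detected, which is 93.1% beside 65.1% of all probes, with at least 1 oligo for each gene and a median percentile of 78.3, where the median of all probes is close to 50 by construction. On thymus arrays 5 of the same 29 probes were detected on all 3 arrays, there beside 33.9% of all probes. The subunits differed in place.

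Among AMPA receptor subunits, Gria1 oligos stood at percentiles 88.2 and 90.8 and Gria3 oligos at 84.5 and 78.3, below Gria2. Gria4 was split, with oligo 1 detected at 63.1 and oligo 2 above the limit on 1 array at 23.0. All 10 probes printed as NMDA receptors were detected. Grin1, the subunit that every NMDA receptor needs, gave 17315, 15732 and 3437 units with oligo 2 (91.8 ± 3.21), and its first oligo ranked alike (91.3).

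Grin2a and Grin2b, the usual partners of Grin1 in the forebrain, lay at 80.3 and 87.1 and at 82.3 and 83.2. The highest NMDA receptor probe was however Grin2c oligo 1, a subunit best known from cerebellum, with 33057, 10867 and 5379 units (93.6 ± 3.59), while Grin2c oligo 2 gave 1820, 2135 and 619 units (45.7 ± 9.05). Grin2d oligos stood lowest, at 34.6 and 31.5, still above the limit on all 3 arrays.

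Of the kainate receptor subunits, Grik2 lay between 45.0 and 57.6 over 4 probes in 2 entries. Both ends of that range came from an entry printed ka.2, whose accession is that of Grik2. The entry printed glur6p stood at 55.1 and 52.8. An entry printed glur5p, whose accession is that of Grik5, had oligos at 75.9 and 87.2. Metabotropic receptors, which act through G proteins, gave 8 of 9 probes detected, beside 65.1% of all probes. Grm5 stood at 86.7, Grm7 at 51.4 and 72.8, and Grm8 at 87.3 with 1 oligo and 20.9 with the other.

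The listed GABA-A receptor subunits of the forebrain gave 20 of 26 probes detected, with every one of the 12 genes detected by at least 1 oligo and a median percentile of 70.3. The whole printed class, which adds other subunits, gave 25 of 38 (65.8%), close to the 65.1% of all probes. Gabrb2 oligo 2, for a beta chain, gave 26723, 21711 and 10711 units (96.4 ± 0.779), and its first oligo stood at 82.2. Both oligos of Gabra2, for an alpha chain, ranked in the upper part as well, at 89.5 and 78.4.

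Gabrg1 had 1 of 4 probes detected, with percentiles from 14.8 to 35.3. Gabrd, which forms receptors outside synapses, was detected with 1 oligo at 46.6. Interneuron peptides gave 9 of 10 probes detected (90%, beside 65.1% of all probes). After Sst and Cck came Cort, cortistatin, at 62.9 and 51.3, and Tac1, the substance P precursor, whose lower oligo was at 30.2 and still detected.

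Calcium binding proteins that label interneurons in histology were detected with both oligos each. Pvalb, parvalbumin, stood at 68.9 and 75.3, Calb2, calretinin, at 64.6 and 55.4, and Calb1, calbindin, at 46.9 and 58.3. Pcp4, a small calmodulin regulator, led that class with oligo 1 at 13421, 12285 and 6269 units (91.9 ± 3.23).

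The potassium channels listed for cortical firing gave 22 of 26 probes detected (84.6%, beside 65.1% of all probes). All 13 genes were detected by at least 1 oligo. The median percentile was 75.1, beside 51.0 for all 136 probes printed as potassium channels, of which 90 were detected (66.2%). Kcna1, a delayed rectifier of axons, led with 19016, 23365 and 5369 units from oligo 2 (94.7 ± 1.32). Kcna2, a channel of the same family, gave 12610, 10556 and 3091 units with oligo 1 (87.8 ± 1.53).

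Kcnd2, which carries A-type current in dendrites, stood at 87.1 and 77.6, and Kcnc1, a channel of fast-spiking interneurons, at 87.6 and 73.5. Kcnip2, a partner of Kcnd channels, was low, at 22.2 and 34.5. Across the whole class the highest probe was Kcnj13 oligo 2, a rectifier known from epithelia such as choroid plexus, with 30373, 20595 and 5278 units (95.2 ± 1.34). Its first oligo stood at 71.7 ± 3.01.

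Kinases had the highest class median, at percentile 87.5 ± 3.0 over 3 arrays, with 14 of 16 probes detected, beside 65.1% of all probes. Ntrk2, the receptor of brain-derived neurotrophic factor, gave 94.9 with each of its oligos, and Camk4, a nuclear calmodulin kinase, gave 91.8 and 90.1. Calcium channels were mostly detected without ranking high, as the limits lay in the lower part of each array's ranking. Of their 8 probes 7 were detected, yet the class median was 36.2 ± 6.76, and the highest, printed cach2a, gave 5019, 3299 and 672 units (60 ± 15.2).

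Receptors of the modulatory transmitters and peptides varied by class in their counts. Against 65.1% of all probes, 11 of 26 serotonin receptor probes (42.3%) and 7 of 16 adrenergic (43.8%) were detected. Other counts lay nearer that share, with 6 of 12 for dopamine, 6 of 12 for adenosine, 4 of 8 for opioid, 9 of 16 for nicotinic, 8 of 12 for muscarinic and 6 of 8 for somatostatin receptors. Differences between classes were not tested. Adora1, the inhibitory adenosine receptor, gave 21915, 26708 and 7149 units with oligo 2 of 1 entry (95.8 ± 1.15) and 84.0 with its first oligo.

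Chrm1, the main muscarinic receptor of cortex, gave 8430, 8850 and 4182 units with oligo 2 (86.2 ± 5.19); its first oligo had a value on 1 array only and so was not called. Drd4 led the dopamine receptors with 13889, 8243 and 3012 units (86.9 ± 2.24). Oprm1, the mu opioid receptor, gave 66.6 ± 8.02 and Cnr1, the cannabinoid receptor of nerve terminals, gave 77.1 ± 7.12 with their higher oligos.

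Probes for the enzymes that make amines and acetylcholine were mostly not detected. Only 4 of the 13 genes listed had probes. Of their 12 probes 2 were detected (16.7%, beside 65.1% of all probes), with a median percentile of 18.0. Th, tyrosine hydroxylase, gave 1550, 971 and 424 units with oligo 2, which is 1.05 times the limit at its lowest. A Chat oligo for choline acetyltransferase gave 1590, 915 and 645 units. None of the 4 Tph1 probes for a tryptophan hydroxylase and neither Dbh probe for dopamine beta-hydroxylase was detected. Tph2, the other tryptophan hydroxylase gene of the list, and the rest of the listed genes had no probe and could not be assessed. With the limit at the 95th percentile of blanks 6 of the 12 passed, beside 460 of all 590 probes. Without cortex 3 also 6 passed, beside 439 of 590. At 2 SD above local background 1 passed, beside 389 of 590.

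Probes for genes known mainly from muscle, retina or epithelium were detected in 12 of 32 cases, a share of 37.5% beside 65.1% of all probes, with a median percentile of 25.4. On thymus arrays the count was also 12, there beside 33.9% of all probes. The highest were 2 rat-printed entries of Kcnj1, a renal potassium channel: romk6 oligo 1 gave 9463, 7310 and 5909 units (86.9 ± 6.65) and kir1,1b oligo 2 gave 12162, 8310 and 3326 units (86.7 ± 1.06). The gene's 8 probes ran from percentile 4.04 to 86.9, and 5 of them were not detected.

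Gabrr1 oligo 2, for a retinal GABA receptor subunit, stood at 76.0 ± 9.07, and its other oligo was above no limit. Scnn1g, an epithelial sodium channel subunit, was at 62.9 and Chrng, a fetal muscle nicotinic subunit, at 59.9, each with 1 oligo detected. Kcna7 was detected with both oligos, at 51.2 and 57.1, in an entry printed kv1,8. Scn4a, Chrna1, Chrnb1 and Scnn1b each had 1 detected oligo, between percentiles 31.0 and 43.8. Except for Kcnj1 kir1,1b and Kcna7, then, each entry of this list with a detected probe had just 1 of its oligos detected.

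Patterning factors of the forebrain gave 7 of 12 probes detected and factors of midbrain, hindbrain or early stages 4 of 10. These are 58.3% and 40% of the probes, both below the 65.1% of all probes. Dlx1, which marks interneuron lineages, was detected with both oligos at 60.8 ± 1.75 and 70.2 ± 12.0. Dlx2 and Dlx5 of the same family were less even. Dlx2 was detected with 1 oligo at 97.0 but not with the other at 18.3, and Dlx5 with neither, at 9.53 and 27.8. Pax6 was detected with 1 oligo at 42.2 and not with the other at 8.92, and the only Otx1 probe was not detected. Emx1 and Emx2, factors of the cortical primordium, were detected with every probe, at 32.0 for Emx1 and at 34.6 and 56.5 for Emx2. Pax8 gave 12528, 2816 and 2642 units with oligo 1 (78.1 ± 12.1) and was detected with both oligos, whereas En1 was detected with neither.

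By printed class, 14 of the 27 classes with at least 4 probes had a detected share above that of all probes and 13 below. The lowest were neuroendocrinology with 9 of 22 probes, enzymes of synthesis with 10 of 24, and serotonin receptors. Housekeeping controls gave 48 of 52, and without them 62.5% of the other 538 probes were detected. Probes printed as rat sequences were detected in 9 of 20 cases (45%), against 65.8% of the others.

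**Figure D3:**
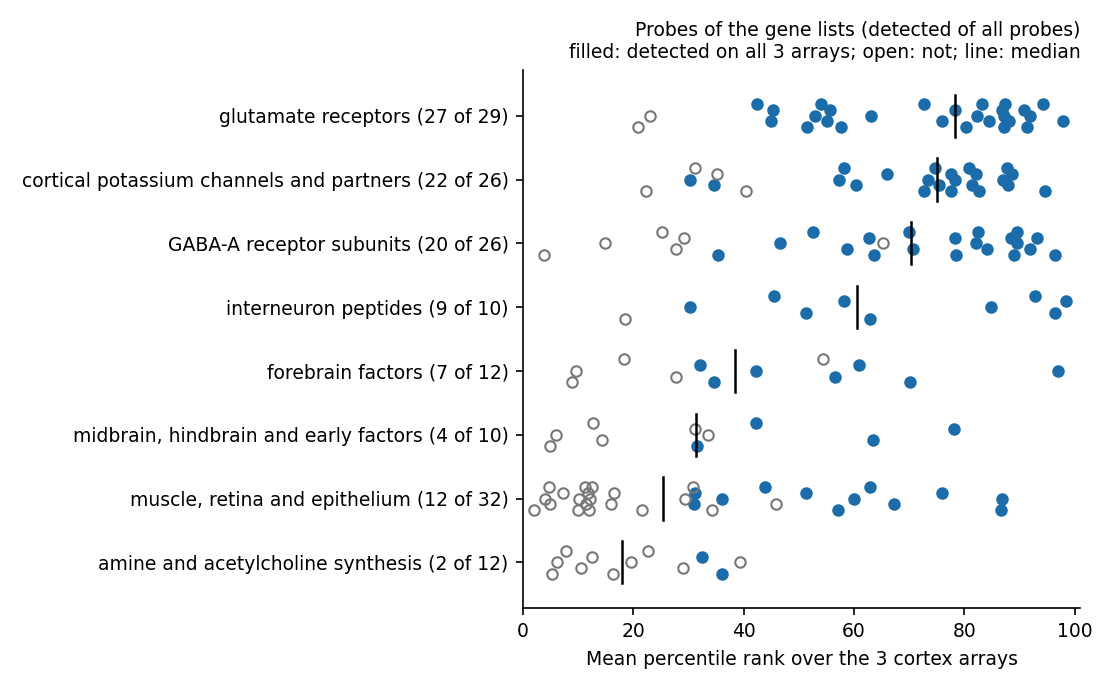
Mean percentile rank over 3 cortex arrays of every probe of 8 gene lists, filled where detected on all 3 arrays, with the list median as a line. Medians run from 78.3 for glutamate receptors to 18.0 for amine and acetylcholine synthesis, and each list overlaps the others in range.

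Set beside the thymus arrays, each cortex array had more probes above its limit than any thymus array. Cortex arrays had 518, 449 and 421, a mean of 462.7 ± 49.9, and thymus arrays had 360, 269 and 247, a mean of 292 ± 59.9 (SD, n = 3 each). The groups did not overlap. With flagged spots kept they did, at 182, 410 and 43 probes on cortex arrays and 334, 52 and 77 on thymus arrays, a difference of 57.3. The main difference of 170.7 probes gave p = 0.1 in a two-sided exact permutation test, which is the smallest p that 3 against 3 arrays allow. That test runs over repeat hybridizations of pooled RNA, so it compares these arrays and not the tissues of mice. Within the scan setting that the file headers give for cortex 1, cortex 2 and thymus 1 the difference was 123.5 probes, and within that of cortex 3 and thymus 2 it was 152.

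On thymus arrays 200 probes (33.9%) were detected on all 3. Of these, 177 were also detected in cortex, which is 88.5% of the thymus probes and 46.1% of the cortex probes. A set of 89 probes was detected on all cortex arrays and on no thymus array, and 2 showed the reverse. In all 27 classes the cortex share was above the thymus share. The class printed as glutamate receptors, which holds AMPA and kainate subunits, had 17 of 18 probes detected in cortex and 1 in thymus, calcium channels 7 of 8 in cortex and 0 in thymus, and kinases 14 of 16 in cortex and 11 in thymus. Arrays differed in brightness, with medians of 829 to 2573 units on cortex and 452 to 950 units on thymus, and its part in these counts was not tested.

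**Figure D4:**
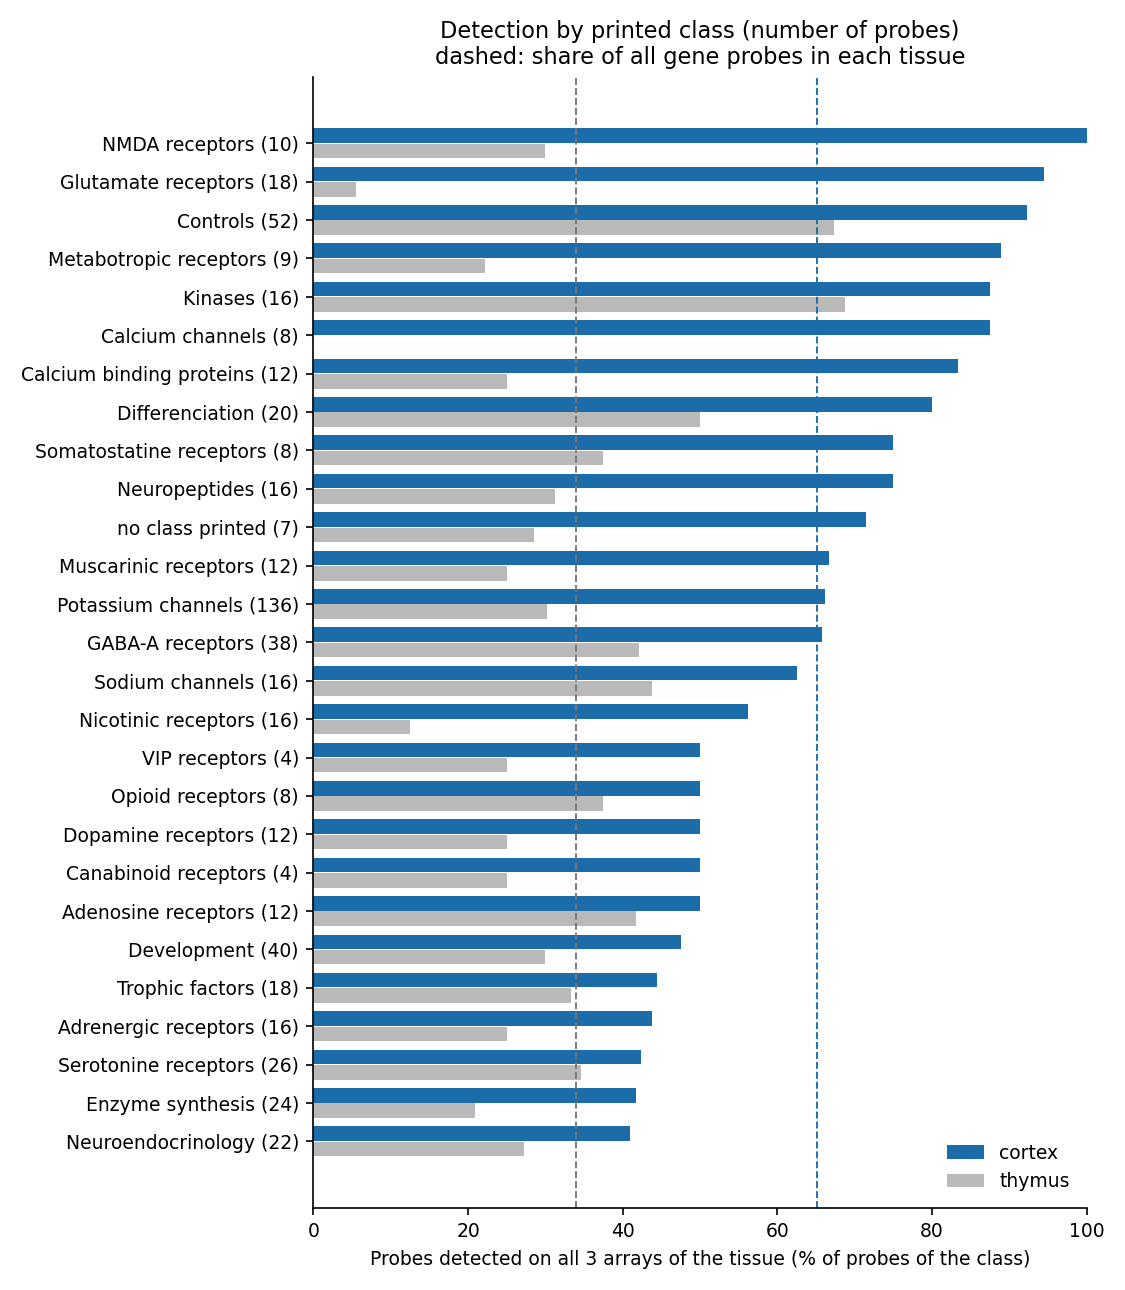
Percent of probes detected on all 3 arrays for 27 printed classes, cortex above thymus, with the number of probes in brackets and the share of all gene probes dashed at 65.1% for cortex and 33.9% for thymus. NMDA receptors reach 100% in cortex, and controls and kinases are the classes with the highest thymus bars.

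The oligos of an entry agreed only in part. Of 265 entries with exactly 2 oligos, both were detected in 124 (46.8%), 1 in 87 (32.8%) and neither in 54 (20.4%). With flagged spots kept, and the higher limits that follow, both were detected in 9. Spearman's rho between the mean ranks of first and second oligo was 0.515 over the 265 entries, which share their arrays, and 0.488, 0.544 and 0.489 on single arrays. The median difference was 15.0 percentile points. It was under 10 points for 80 entries and over 50 points for 24.

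For comparison, the percentile of a probe varied between arrays with a median SD of 5.36 points. Of 79 entries whose oligos differed by over 25 points, 69 had the same oligo higher on all 3 arrays. The first oligo was the higher in 118 of 265 entries. At the median, agreement was tight for NMDA receptors, with a difference of 3.1 points over 5 entries, and for kinases, with 2.68 over 8. Single entries of these classes differed more, Grin2c by 47.9 points and Ngfr, printed among the kinases, by 22.7. Development factors differed by 25.4 points over 19 entries, neuropeptides by 27.5 over 8 and serotonin receptors by 27.1 over 13.

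Kcnk9, a leak potassium channel, had the largest difference among entries with 1 detected oligo. Oligo 1 gave 60.5, 124 and 33.8 units and oligo 2 gave 25390, 22482 and 4635 units, 89.8 percentile points apart. Otx2, a head patterning factor also made in choroid plexus, gave 42.3, 60 and 70.8 units with oligo 1 and 14344, 13339 and 3930 units with oligo 2. In both cases 1 oligo lay far below the limit and its partner near the top of the ranking on every array.

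Htr3a, a serotonin-gated channel of interneurons, was at percentile 4.92 with oligo 1 and 90.3 with oligo 2. Dlx2 was at 18.3 and 97.0, Hoxa5 at 8.37 and 86.4, and Prl, the pituitary hormone prolactin, at 18.8 and 95.1. Gabra3 was at 3.88 and 78.4. A high rank of such a gene therefore rests on 1 oligo, and so does the place of Dlx2 and Prl at the head of their classes.

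**Figure D5:**
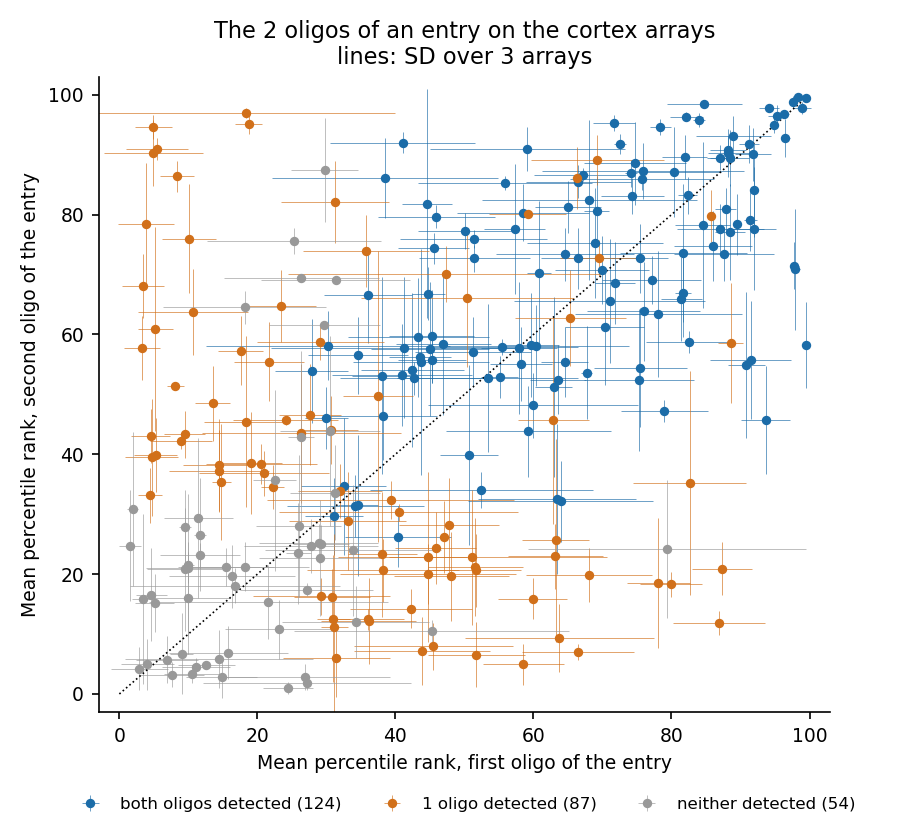
Mean percentile rank of the second against the first oligo for 265 entries, with SD over 3 cortex arrays and the line of equality dotted. The 124 entries with both oligos detected fill the upper right, and the 87 with 1 detected lie toward the upper left and lower right edges.

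Genes with several entries gave a further check. Of 14 such genes, 7 had a detected oligo in every entry and 7 in some. Hprt (purine salvage) and Asic2 (an acid-gated channel) were of the first kind, and Adora1, Drd1 and Kcnj1 of the second. Asic2 probes kept together, from percentile 61.3 to 73.4, while Adora1 probes ran from 29.7 to 95.8, with missing values in the lower entry.

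Ranks repeated well between arrays. Spearman's rho over probes was 0.950 between cortex 1 and 2, 0.932 between 1 and 3 and 0.911 between 2 and 3, over 572 to 579 probes. The median difference between arrays was 4.70, 5.61 and 7.47 percentile points for the same pairs. Single spots of a probe within an array gave rho of 0.941, 0.948 and 0.914, and differed by a median of 4.34, 5.06 and 5.78 points. The spread was widest in the middle of the ranking, with a median SD of 7.75 points, against 4.97 in the lower and 3.59 in the upper part of equal size. The most variable probe was Npy1r oligo 2, for a neuropeptide Y receptor, at percentiles 61.1, 66.0 and 21.8, lowest on cortex 3.

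Many calls lay close to the limit. Over the 384 detected probes the lowest ratio of signal to limit had a median of 3.08; it was under 1.5 for 65 probes and over 10 for 55. Just inside were Slc1a3 oligo 1, at 1714, 664 and 924 units, then Kcna3 oligo 2, Vim oligo 2 and Meis1 oligo 1. Among the probes just outside were Adrb1 oligo 2, at 1060, 644 and 408 units, Fos oligo 1 and an oligo printed Shfdg1.1.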

How the data were processed

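Single-colour spot intensity values, as deposited on the scanner's linear scale with no normalization, were read for 3 cortex and 3 thymus arrays; per the file headers the software reported a signal and a local background for each spot, with a flag for bad spots. The name of the software was not given in the sources used here. Precision is limited by having 3 arrays a tissue. Sample titles gave the groups and replicate numbers.

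Net signal was each unflagged spot's median less its background median, averaged per probe. The limit of an array was its highest unflagged blank or buffer spot, and a missing value counted as not detected. Percentile ranks were taken among probes with a value. Symbols came from the RefSeq gene table by accession (206 probes) or from the printed class and name (308), and 76 probes kept the printed name. Where an accession and a printed name disagreed, the accession was used. Oligo sequences and genome positions were not used here.

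The rule for named genes took the 20 highest probes, all marker probes, the highest of each class of 4 or more probes, the 10 largest differences between oligos with 1 detected, the 3 highest and all detected outside-cortex probes of the lists, 4 probes on each side of the limit and the 6 most variable, of which the text describes a selection; other genes are named to fill a described group and were chosen after their values were seen. A few named by it are not reported here. The members and lists were chosen with earlier results of these data known.

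The deposited value table covers 20 probes in intensity units scaled by the authors. Its columns equal the net signal times 1 factor per array within 1%, except for the cortex 3 column, which matches thymus 1 multiplied by 5.68. The cortex columns had medians of 932, 1138 and 1918, and those of thymus 625, 317 and 750. Values are linear and uncentred, and the choice of factors is unknown. It served as an alternative only.

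Python 3.11.15 with numpy 2.4.6, pandas 2.3.3, scipy 1.17.1 and matplotlib 3.10.9 was used, with limma 3.58.1 in R 4.3.3 for normexp (offset 50). The code for detection and ranking was run on simulated data with signals far above the blanks and no flagged spots. That run could not test calls close to the limit. Deviations of same-numbered cortex and thymus arrays correlated at 0.17, -0.027 and 0.050 over probes, so the numbers were not taken to pair the arrays. Alternatives covered the limit, flags, spot summary, background, signal mean, each array left out and the value table.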

Additional observations from a re-analysis of the deposited data

Results flagged for a closer look

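Some control spots outside the gene probes also gave signal with cortex RNA, above the highest blank spot. A control entry printed with an identifier and no gene name gave a mean net signal of 3531 units with oligo 1, at 4202, 4254 and 2138 units, above the limit on all 3 arrays. Its oligo 2 averaged 1344 units, at 2380, 1326 and 328 units, above the limit on cortex 1 and 2. The control printed XCP2-S1 averaged 1318 units, at 1913, 1908 and 134 units, above the limit on the same arrays. CAB-S1 was above the limit on cortex 1 only. The controls printed RCA-S1, RCBL-S1 and M. domestica and the spots printed unknown were above it on no cortex array.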

How the results depend on the processing

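The count of 384 detected probes held within 1.5 times under the other limits, at 460 with the 95th percentile of blanks, 425 with their mean plus 3 SD and 389 with 2 SD above local background, where 366 of the 384 remained. It was 471 for at least 2 arrays and 390 to 439 with an array left out, which can only raise it, and, chosen after seeing the data, 402 over arrays with a value. Keeping flagged spots left 43 probes and 9 entries with both oligos, since flagged blanks then set limits of 5426 units on cortex 1 and 4933 on cortex 3.

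Rank agreement between arrays averaged 0.931, and 0.888 over detected probes only. It ran from 0.911 to 0.950 with an array left out. Between cortex 1 and 2 it was 0.847 over the 19 probes of the authors' value table. The net signal gave the same 0.847 over those probes, since the table's columns for these arrays are that signal times 1 factor each. The table is therefore no separate check of the ranks. Agreement of oligos was 0.515, and 0.583 over detected entries. The amine and acetylcholine list gave 6 of 12 probes at the 95th percentile, beside 460 of all 590. It gave 6 on at least 2 arrays, beside 471, and 1 at 2 SD above local background, beside 389. With an array left out its range was 2 to 6. The other lists kept within 1.5 times of their counts under the limits and arrays tried. No list was counted with flagged spots kept, the setting that lowered detection most. Cortex minus thymus was 170.7 probes, 57.3 with flagged spots kept (exact permutation p = 0.7) and 143 to 204.7 with an array left out. With the replicate block the exact permutation p was 0.25, the smallest it allows. Mean percentiles of 107 named probes moved by up to 13.9 points without cortex 3, 12.5 without cortex 2 and 8.77 without cortex 1, and by up to 8.89 with flagged spots kept. The value table was not set against single ranks, since it covers too few probes.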
